A study of Mus musculus with 36 samples.

Results

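The comparison described here set the sorted progeny of Lrig1+ stem cells 1 week after a second wound (1w pw2) against the same kind of cells 1 week after a first wound (1w pw1), across all genes of the Lrig1 table. It comprised 6 of the 36 mini-bulk RNA-seq libraries of the series, 3 per time point, and 14306 genes tested of 20181 in the table. The mice carried Lrig1-EGFP-ires-CreERT2 and Rosa26-fl/STOP/fl-tdTomato, and tail skin of young adults received 1 topical dose of hydroxytamoxifen before wounding, so that cells in which the Lrig1 promoter drove CreERT2 at that moment, and all their descendants, carry tdTomato (Lrig1 GL cells, where GL stands for genetically labelled). The tdTomato+ epidermal cells were sorted from skin that held the wound bed and the hair follicles around it, so a library mixes cells that migrated into the wound with cells that stayed in undamaged follicles. The 1w pw1 mice had 1 full-thickness tail wound. The 1w pw2 mice had a first wound, healed for 8 weeks, and received a second one in the same area, which places them at week 9 of the experiment. All groups shared both alleles, the labelling and the sort, and the 1w pw2 mice were 8 weeks further from labelling, so that the number of wounds cannot be told apart from age and time since labelling. The study used unwounded skin (0w) and skin 8 weeks after the first wound (8w pw1) as the states that precede each wound, and a parallel set of Lgr5 GL cells from Lgr5-EGFP-ires-CreERT2 mice, and these libraries are used here only where a comparison needs them.

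Lrig1 marks stem cells of the upper hair follicle, in the junctional zone and infundibulum, which maintain that region and the sebaceous gland and can leave the follicle to rebuild the interfollicular epidermis after injury. Keratinocytes at a wound normally lower their differentiation genes, induce stress keratins and glycolysis, loosen contacts and migrate, then return toward a basal state as the wound closes. Wound memory describes epidermis that closes a later wound faster after it has experienced an earlier one, and the comparison asks what the labelled cells express at the same interval after each wound.

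The 18 Lrig1 GL libraries held 765252 to 3365666 counts. The 1w pw1 libraries held 1027526, 765252 and 1999352 counts and the 1w pw2 libraries 2179735, 3143170 and 1528091, so 2 of the 3 shallowest of the 6 belong to the first wound. Counts were found for 15993 to 16412 genes per 1w pw1 library and for 16762 to 17171 per 1w pw2 library. Pearson correlations of log2 levels were 0.75 to 0.798 among 1w pw1 libraries, 0.834 to 0.851 among 1w pw2 libraries and 0.733 to 0.809 between them, and replicate 3 of 1w pw1 had the lowest values. None of the 15 pairs of these 6 libraries agreed within sampling noise. The 12 pan-keratinocyte markers, all tested, summed to 42659.7 to 44333 CPM at 1w pw1 and 43960.5 to 48617 CPM at 1w pw2. Of 17 immune markers 7 were found by symbol and 5 tested. The list summed to 20.4 to 38.9 CPM at 1w pw1 and 10.9 to 28.9 CPM at 1w pw2. The other 10, Cd3e, Cd207, Lyz2, Csf1r and Adgre1 among them, were not analysed here. All 5 tested had a negative difference, 3 of them at an unadjusted p under 0.05. Among the 5, H2-Ab1, Cd68 and Cd74 were at 0 in every 1w pw2 library, so no other sign was possible for them. Of 12 fibroblast markers 8 were found and 6 tested. The list summed to 195 to 485 CPM at 1w pw1 and 162.8 to 293 CPM at 1w pw2, and 5 of the 6 had a negative difference, 1 of them at an unadjusted p under 0.05. Lum, Pdgfrb, Mfap5 and Twist2 were not analysed here. Col3a1, a fibroblast collagen, was at 4.75, 4.52 and 44.3 CPM at 1w pw1 and 0, 0.37 and 0 CPM at 1w pw2. The antigen presentation gene H2-Ab1 was at 4.75, 0 and 18.5 CPM at 1w pw1 and 0, 0 and 0 CPM at 1w pw2, and Cd68, of macrophages, at 19.9, 3.39 and 0 CPM at 1w pw1 and 0, 0 and 0 CPM at 1w pw2. Both sums were low beside the keratinocyte markers, and their part in any difference below was not tested. Xist was found in all 6 libraries, at 673 to 2723 CPM.

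No gene passed an adjusted p of 0.05 between 1w pw2 and 1w pw1 in edgeR's quasi-likelihood test with Benjamini-Hochberg adjustment over the 14306 genes (0%), and the smallest adjusted p was 0.279. At an unadjusted p under 0.05 there were 1269 genes (8.87% of those tested), 839 higher at 1w pw2 (5.86%) and 430 lower (3.01%), where a test with no difference anywhere would give about 5% in all. Other tools on the same counts called 36 genes (edgeR likelihood ratio test), 59 (DESeq2) and 15 (limma-voom) at an adjusted p under 0.05. With 3 libraries against 3, an exact permutation test of a single gene cannot go below a two-sided p of 0.1. The genes whose 3 libraries at 1w pw2 all stood above the 3 at 1w pw1 numbered 1603 (11.2%) and those with all 3 below numbered 1260 (8.81%). With counts thinned to the depth of the shallowest library (chosen after seeing the data) they numbered 1264 and 1286, so by this count the excess of higher genes was not seen at equal depth. Of the genes at an unadjusted p under 0.05, 61.4% were higher with thinned counts, against 66.1% as fitted. The statements that follow are therefore descriptions of levels in 6 libraries, given as CPM, a count divided by the TMM-scaled library total and set to a total of 1e6 counts. Values stand in the order of replicates 1 to 3, and "higher" or "lower" without an adjusted p under 0.05 is not a call. In sorted bulk samples, fewer cells of a type and less RNA per cell cannot be told apart.

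The 14 genes that were higher at 1w pw2 with the smallest p, by a rule that also required the time points not to overlap, ranged from 2.3-fold to 6.41-fold higher in mean CPM. Usp9x (chromosome X, 13071498 to 13173328, plus strand, GRCm38), an X-linked deubiquitinase, was at 132, 131 and 188 CPM at 1w pw1 and 434, 507 and 399 CPM at 1w pw2 (log2 difference 1.57 ± 0.29 SE, unadjusted p = 4.82e-05, edgeR adjusted p = 0.279). Cetn3 (chromosome 13, 81783077 to 81797155, plus strand), a centrin of the centrosome, was at 125, 95 and 136 CPM at 1w pw1 and 393, 726 and 422 CPM at 1w pw2 (log2 difference 2.11 ± 0.40, unadjusted p = 6.33e-05, edgeR adjusted p = 0.279). Dcun1d5, a cofactor of cullin neddylation, was at 119, 48.6 and 116 CPM at 1w pw1 and 265, 474 and 263 CPM at 1w pw2 (log2 difference 1.81 ± 0.35). In each of these the lowest 1w pw2 library stood well above the highest 1w pw1 library, and the 3 genes shared the smallest adjusted p with Pdcd4. Pdcd4, an inhibitor of the translation initiation helicase, was at 181, 156 and 189 CPM at 1w pw1 and 468, 506 and 416 CPM at 1w pw2 (log2 difference 1.40 ± 0.27). Ppp3ca, the catalytic subunit of the calcium-dependent phosphatase calcineurin, was at 228, 229.6 and 218 CPM at 1w pw1 and 513, 668 and 622 CPM at 1w pw2 (1.42 ± 0.29). H3f3b (chromosome 11, 116021912 to 116027962, minus strand), which encodes a replacement variant of a core histone and has near-identical copies with which reads can be shared, was the most abundant of the 14, at 2087, 2270.2 and 2056 CPM at 1w pw1 and 4934, 8218 and 5883 CPM at 1w pw2 (1.57 ± 0.32).

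Tomm70a, an import receptor of the outer mitochondrial membrane, was at 177, 152 and 104 CPM at 1w pw1 and 448, 572 and 328 CPM at 1w pw2 (1.64 ± 0.34 on the log2 scale). Mrps18c, a protein of the mitochondrial ribosome, was at 33.2, 21.5 and 12 CPM at 1w pw1 and 126, 226 and 76.3 CPM at 1w pw2 (2.70 ± 0.60) and had the widest difference of the 14. Eif3m, a subunit of a translation initiation factor, was at 181, 98.4 and 134 CPM at 1w pw1 and 326, 355 and 269 CPM at 1w pw2 (1.20 ± 0.26) and had the narrowest. Protein phosphatase 1 was represented by its catalytic subunit and by an inhibitor of it, and both stood higher. The catalytic gene Ppp1cb was at 413, 363 and 206 CPM at 1w pw1 and 1070.3, 1341 and 989.8 CPM at 1w pw2 (1.79 ± 0.39). The inhibitor Ppp1r14c was at 80.7, 83.7 and 95.6 CPM at 1w pw1 and 333, 218 and 214 CPM at 1w pw2 (1.56 ± 0.35). Gng5 (chromosome 3, 146499807 to 146505572, plus strand), a gamma subunit of heterotrimeric G proteins, was at 344, 271 and 175 CPM at 1w pw1 and 747, 1725 and 893 CPM at 1w pw2 (2.09 ± 0.44), with replicate 2 of 1w pw2 well above the other two. Rasa1, which switches Ras off, was at 72.1, 107 and 31.9 CPM at 1w pw1 and 203, 262 and 292 CPM at 1w pw2 (1.85 ± 0.39). Tceal9, a member of a family related to transcription elongation factors, was at 31.3, 55.4 and 57.2 CPM at 1w pw1 and 110.0, 204 and 197 CPM at 1w pw2 (1.82 ± 0.40). For all 14 the adjusted p lay between 0.279 and 0.289. DESeq2 called all 14 of them, the likelihood ratio test all 14 and limma-voom 9.

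The 14 genes that were lower at 1w pw2 by the same rule were 2.13-fold to 6.69-fold lower in mean CPM. Polm (chromosome 11, 5827860 to 5838016, minus strand), a DNA polymerase of end joining, was at 35.1, 82.6 and 36 CPM at 1w pw1 and 8.97, 11.6 and 7.23 CPM at 1w pw2 (log2 difference -2.44 ± 0.54 SE, unadjusted p = 0.000286, edgeR adjusted p = 0.289). Notch3 (chromosome 17, 32120820 to 32166852, minus strand), a receptor of the Notch pathway, was at 121, 65.6 and 126 CPM at 1w pw1 and 26.4, 24.7 and 23.7 CPM at 1w pw2 (log2 difference -2.06 ± 0.49, unadjusted p = 0.000534, edgeR adjusted p = 0.304). Slc27a4, the fatty acid transport protein required for the epidermal barrier, was at 70.2, 47.5 and 127 CPM at 1w pw1 and 20.8, 13.5 and 7.23 CPM at 1w pw2 (-2.56 ± 0.62). These 3 had the smallest p of the lower genes, and the 1w pw2 libraries of Notch3 lay within a few CPM of each other. Cxxc1, the CpG-binding subunit of complexes that methylate histone H3, was at 56, 41.9 and 79.4 CPM at 1w pw1 and 21.2, 15.7 and 19.1 CPM at 1w pw2 (-1.66 ± 0.41). Nisch, an integrin-binding protein known to restrain cell migration, was at 206, 397 and 288 CPM at 1w pw1 and 171, 112 and 136 CPM at 1w pw2 (-1.09 ± 0.30). Syvn1, the ubiquitin ligase of endoplasmic reticulum quality control, was at 135, 84.8 and 80.8 CPM at 1w pw1 and 40.6, 40.8 and 34.9 CPM at 1w pw2 (-1.37 ± 0.36).

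Dbp, an output transcription factor of the circadian clock, had the widest difference of the lower genes, at 21.8, 26 and 50.8 CPM at 1w pw1 and 1.42, 1.5 and 11.8 CPM at 1w pw2 (-2.81 ± 0.80). The time of day at which tissue was taken is not given in the sources used here. Qsox1, a secreted sulfhydryl oxidase, was at 67.4, 63.4 and 317 CPM at 1w pw1 and 30.7, 27.3 and 28.9 CPM at 1w pw2 (-2.37 ± 0.66), where replicate 3 of 1w pw1 alone was high, and leaving it out moved the log2 difference to -1.21. Ndufa11, an accessory subunit of respiratory complex I, was at 151, 123 and 248 CPM at 1w pw1 and 95.8, 65.8 and 61.2 CPM at 1w pw2 (-1.23 ± 0.35). The sideroflexin Sfxn5 was at 19, 23.8 and 43.4 CPM at 1w pw1 and 5.66, 4.49 and 9.87 CPM at 1w pw2 (-2.11 ± 0.60). The kinase gene Taok2 was at 64.5, 114 and 136 CPM at 1w pw1 and 27.8, 19.5 and 23 CPM at 1w pw2 (-2.16 ± 0.62). The endophilin gene Sh3glb2 was at 97.8, 72.4 and 68.3 CPM at 1w pw1 and 17.5, 32.2 and 26.3 CPM at 1w pw2 (-1.65 ± 0.47). Plch2, a phospholipase C, was at 106, 179.9 and 156 CPM at 1w pw1 and 53.8, 44.1 and 77.6 CPM at 1w pw2 (-1.34 ± 0.38). The transcriptional regulator Sbno2 was at 200.2, 141 and 125 CPM at 1w pw1 and 51.9, 55 and 69.1 CPM at 1w pw2 (-1.41 ± 0.38). Adjusted p for the 14 lay between 0.289 and 0.365. DESeq2 called 7 of them, the likelihood ratio test 3 and limma-voom 0.

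**Figure D1:**
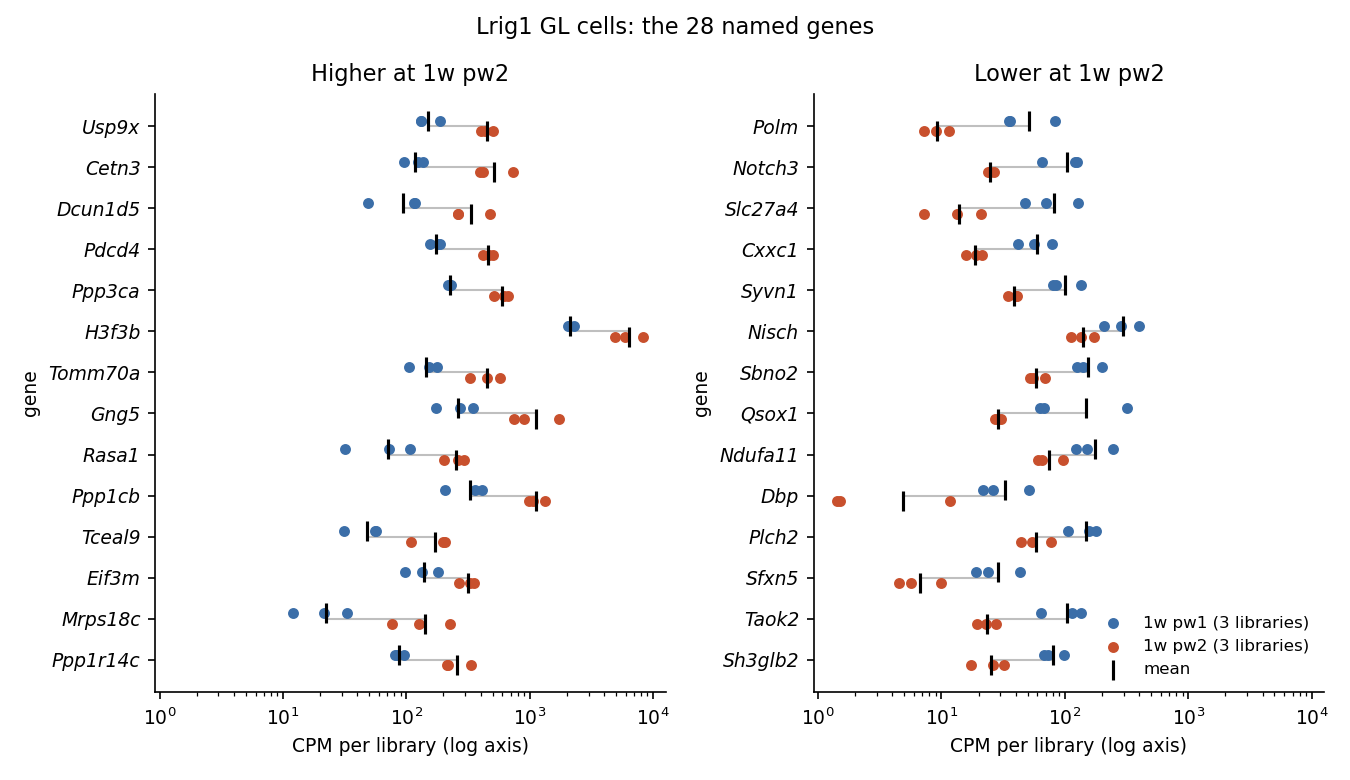
CPM of the 28 named genes in each of the 6 libraries on a log axis, with 1 point per library and the time points in separate colours. In every gene the 3 libraries of 1 time point lie on one side of the 3 of the other, as the rule required, and the lone high 1w pw1 point of Qsox1 is replicate 3 at 317 CPM.

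The higher and lower genes differed in base composition. Median GC content of the transcripts was 48.9% over all genes tested, 43.1% over the 839 higher genes and 54.6% over the 430 lower ones, and it was 40.9% and 57.8% over the 14 named higher and the 14 named lower genes. Over deciles of genes ordered by GC, the median log2 difference went from 0.76 in the decile with the least GC to -0.56 in the decile with the most, against -0.01 over all genes. The tilt was a property of libraries and of time: the log2 level of the lowest GC decile minus that of the highest, centred over the 18 libraries, was -0.94 to -0.86 at 0w and 1.06 to 1.38 at 8w pw1. It was -0.85 to -0.23 in the 1w pw1 libraries and 0.44 to 1.38 in those of 1w pw2. Its part in the differences was not tested. For each group of genes below, the median 1w pw2 minus 1w pw1 difference is also given with a smooth GC trend removed from each library. The members higher and lower at an unadjusted p under 0.05 in that fit stand beside it. Responses from the state before a wound are given without this removal. With the trend removed, 790 of the 14306 genes had an unadjusted p under 0.05, 529 of them higher and 261 lower, against 1269 as fitted. That share is closer to the 5% that no difference anywhere would give than the 8.87% as fitted was. Among the 790 were 13 of the 14 higher and 13 of the 14 lower named genes, and the 14 of each direction had medians of 1.20 and -1.30. The exceptions were Eif3m and Sbno2, with an unadjusted p of 0.0995 and 0.0507 in that edgeR fit. The named genes were picked by p in the same counts, so their place among the 790 is not separate support. Their lowest adjusted p in that edgeR fit was 0.745 for the higher and 0.812 for the lower, against 0.279 and 0.289 as fitted.

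**Figure D2:**
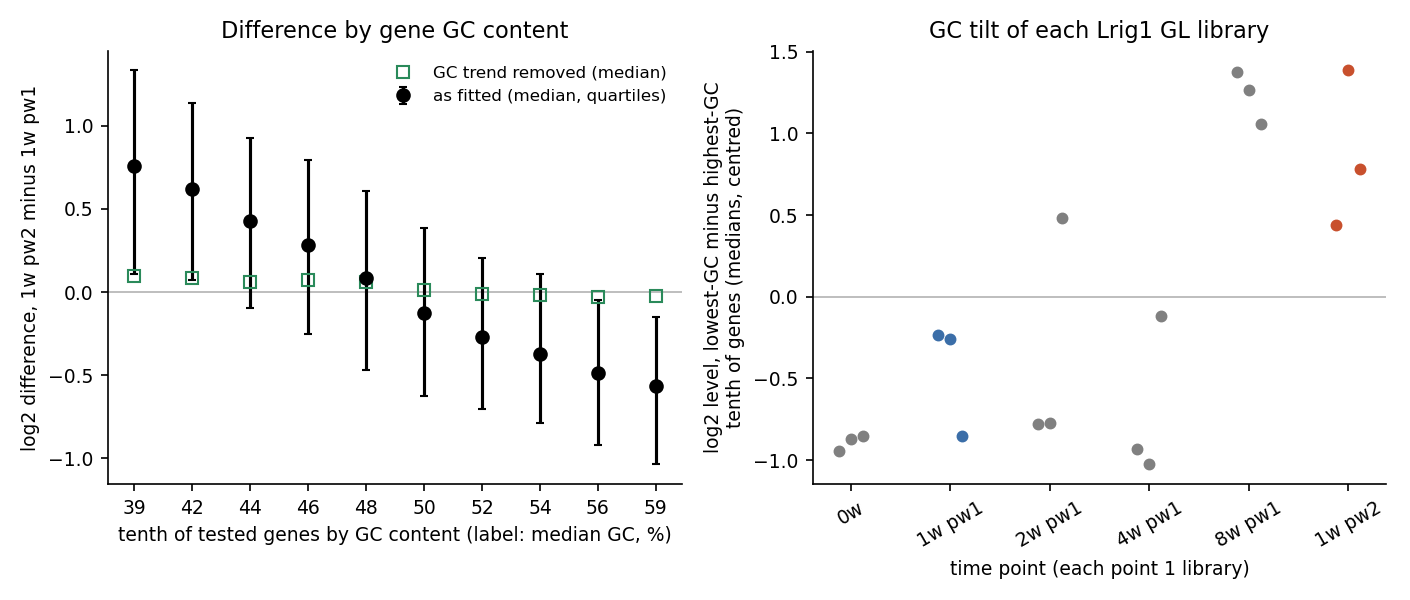
Left, the 1w pw2 minus 1w pw1 log2 difference by decile of transcript GC content (median and quartiles), as fitted and with the GC trend removed. Right, the GC tilt of every Lrig1 GL library by time point, 1 point per library, where the 3 libraries of 1w pw2 sit between 0.44 and 1.38 and those of 1w pw1 between -0.85 and -0.23.

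The libraries taken before each wound were not part of the contrast that ranked the named genes, but shared its fit, filter and dispersion estimate. They show where those genes stood at the start (values from the lowest library to the highest). The shares of all genes tested given beside them are not matched for GC content or count. For 13 of the 14 higher genes all 3 libraries of 8w pw1 stood above all 3 of 0w, against 2122 of all genes tested (14.8%), and the mean was higher at 8w pw1 in all 14. Usp9x was at 136, 206 and 211 CPM at 0w and at 314, 336 and 469 CPM at 8w pw1, and Gng5 at 126, 167 and 188 and 476, 848 and 1023 CPM. Cetn3 was at 169.7, 193 and 239 CPM at 0w, 95, 125 and 136 at 1w pw1, 262, 336 and 548 at 8w pw1 and 393, 422 and 726 at 1w pw2. These genes thus stood at a higher level in healed skin already before the second wound. Over the 14, the median log2 change from the state before the wound was -0.29 for the first wound and 0.18 for the second, with ranges of -1.69 to 0.72 and -0.59 to 0.93. Of the 14 lower genes, 6 had all 3 libraries of 8w pw1 below all 3 of 0w, against 1828 of all genes tested (12.8%), and 11 had a lower mean. Notch3 was at 22.6, 23.1 and 67.4 CPM at 0w, 65.6, 121 and 126 at 1w pw1, 41.5, 51.7 and 52 at 8w pw1 and 23.7, 24.7 and 26.4 at 1w pw2. Dbp was at 38.6, 72.7 and 73.4 CPM at 8w pw1 and its 3 lowest values of the 4 time points named here were those of 1w pw2, at 1.42, 1.5 and 11.8 CPM. The median response of the 14 lower genes was 0.29 to the first wound and -0.52 to the second. The GC tilt moved with these values: it was higher at 8w pw1 than at 0w in every library.

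Genes of known roles in skin were then read as groups, each with the number of its members at an unadjusted p under 0.05 and its median log2 difference, beside the 5.86% higher, 3.01% lower and median of -0.01 over all genes. With the GC trend removed, the 14306 genes had a median of 0.03, with 529 higher and 261 lower. Of 12 wound keratins and alarmins 0 were higher and 2 lower, with a median of -0.73 (-0.45 with the GC trend removed, 0 higher and 0 lower), and 10 of the 12 had a negative difference. Krt17, a keratin of activated and follicular keratinocytes, was at 3826, 2010.1 and 4650.1 CPM at 1w pw1 and 1769, 1529 and 1423 CPM at 1w pw2 (-1.15 ± 0.48 on the log2 scale). Krt16, a keratin induced by wounding, was at 2107, 482 and 1795 CPM at 1w pw1 and 453, 773 and 390.0 CPM at 1w pw2 (-1.44 ± 0.67), with replicate 2 of 1w pw1 as low as the second-wound libraries. Its partner Krt6a was at 3203, 1679.8 and 3137 CPM at 1w pw1 and 1570.1, 2293 and 1121 CPM at 1w pw2 (-0.69 ± 0.45). Krt6b, the other partner, was at 1675, 328 and 1072 CPM at 1w pw1 and 483, 935 and 377 CPM at 1w pw2 (-0.78 ± 0.60). Both overlapped between time points. Krt6a and Krt6b, and likewise Krt14, Krt16 and Krt17, are alike in sequence and reads can be split between them. Taken from the state before each wound, the median log2 response of the list was 3.28 to the first and 2.99 to the second. Gene by gene, the second response minus the first had a median of 0.61, so that the order of the medians does not hold for the typical member. At an unadjusted p under 0.05, 0 of the 12 had the more positive second response and 2 the more negative. Krt6b was at 35.2, 64.7 and 82.8 CPM at 0w and at 9.16, 10.9 and 28.9 CPM at 8w pw1, so its level before the second wound was below that before the first.

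Among 12 genes of the basal layer and its hemidesmosomes, 3 were lower and 0 higher. Krt14 (chromosome 11, 100203162 to 100207548, minus strand), the keratin of basal cells, was at 16663, 17205 and 19864 CPM at 1w pw1 and 12193, 10577 and 9979 CPM at 1w pw2 (-0.71 ± 0.25, unadjusted p = 0.012, edgeR adjusted p = 0.443), where every second-wound library was below every first-wound library. Itgb4, the integrin of hemidesmosomes, was at 313, 481 and 568 CPM at 1w pw1 and 277, 183 and 303 CPM at 1w pw2 (-0.84 ± 0.34). Lamb3, a chain of the laminin it binds, was at 163.2, 199 and 218 CPM at 1w pw1 and 110.0, 111 and 133 CPM at 1w pw2 (-0.72 ± 0.31). The list as a whole had a median of 0.17 (0.26 with the GC trend removed, 1 higher and 0 lower). In the fit without the GC trend Krt14 was at -0.19 (unadjusted p = 0.41), Itgb4 at -0.28 (unadjusted p = 0.331) and Lamb3 at -0.25 (unadjusted p = 0.416) on the log2 scale, so none of the 3 was below 0.05 there. Of 18 genes of interfollicular differentiation 2 were higher and 0 lower, with a median of -0.20 (0.07 with the GC trend removed, 2 higher and 0 lower). Krt10, the first keratin of suprabasal cells, was at 3376, 3924 and 2289.8 CPM at 1w pw1 and 6087, 6821 and 7554 CPM at 1w pw2 (1.09 ± 0.50). Klf4, a transcription factor of barrier formation, was at 268, 224 and 164 CPM at 1w pw1 and 316, 633 and 654 CPM at 1w pw2 (1.29 ± 0.46), and stood at 321, 485 and 618 CPM before the second wound. Krt10 was 2.13-fold higher in mean CPM, and its log2 difference went to 1.45 with the GC trend removed.

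Markers of the follicle compartments gave mixed counts. Of 16 genes of the infundibulum and junctional zone 1 was higher and 2 lower, with a median of 0.01 (-0.21 with the GC trend removed, 0 higher and 1 lower). Postn, which encodes the matrix protein periostin, was the higher one, at 757, 1256 and 546 CPM at 1w pw1 and 1492, 1264 and 2535 CPM at 1w pw2 (1.05 ± 0.38). Lrig1 itself, the gene whose promoter drove the label, was at 121, 89.4 and 155 CPM at 1w pw1 and 123, 98.8 and 95.4 CPM at 1w pw2 (-0.20 ± 0.33), with overlapping libraries, and the sign of its difference turned to 0.24 with the GC trend removed. Teddm3 was at 54.1, 9.05 and 44.3 CPM at 1w pw1 and 12.3, 11.6 and 5.92 CPM at 1w pw2, with overlap, and Krt17, given above, was the other lower gene. Of 17 bulge and hair germ genes 2 were higher and 1 lower, with a median of 0.46 (0.38 with the GC trend removed, 3 higher and 0 lower). Beside Postn, which is on both lists, Ptn, a secreted growth factor, was at 177, 132 and 115 CPM at 1w pw1 and 302, 253 and 329 CPM at 1w pw2 (1.06 ± 0.32). Col18a1, a basement membrane collagen, was at 126, 276 and 332 CPM at 1w pw1 and 106, 127 and 162 CPM at 1w pw2 (-0.90 ± 0.40). Of 15 sebaceous and lipid genes only Scd1, the fatty acid desaturase of sebocytes, had an unadjusted p under 0.05, at 123, 98.4 and 209.6 CPM at 1w pw1 and 265, 413 and 422 CPM at 1w pw2 (1.34 ± 0.51). Of 11 genes of hair shaft and inner root sheath none did. The medians were -0.02 (0.01 with the GC trend removed, 1 higher and 0 lower) for the sebaceous list and -0.08 (0.42 with the GC trend removed, 0 higher and 0 lower) for the hair list.

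**Figure D3:**
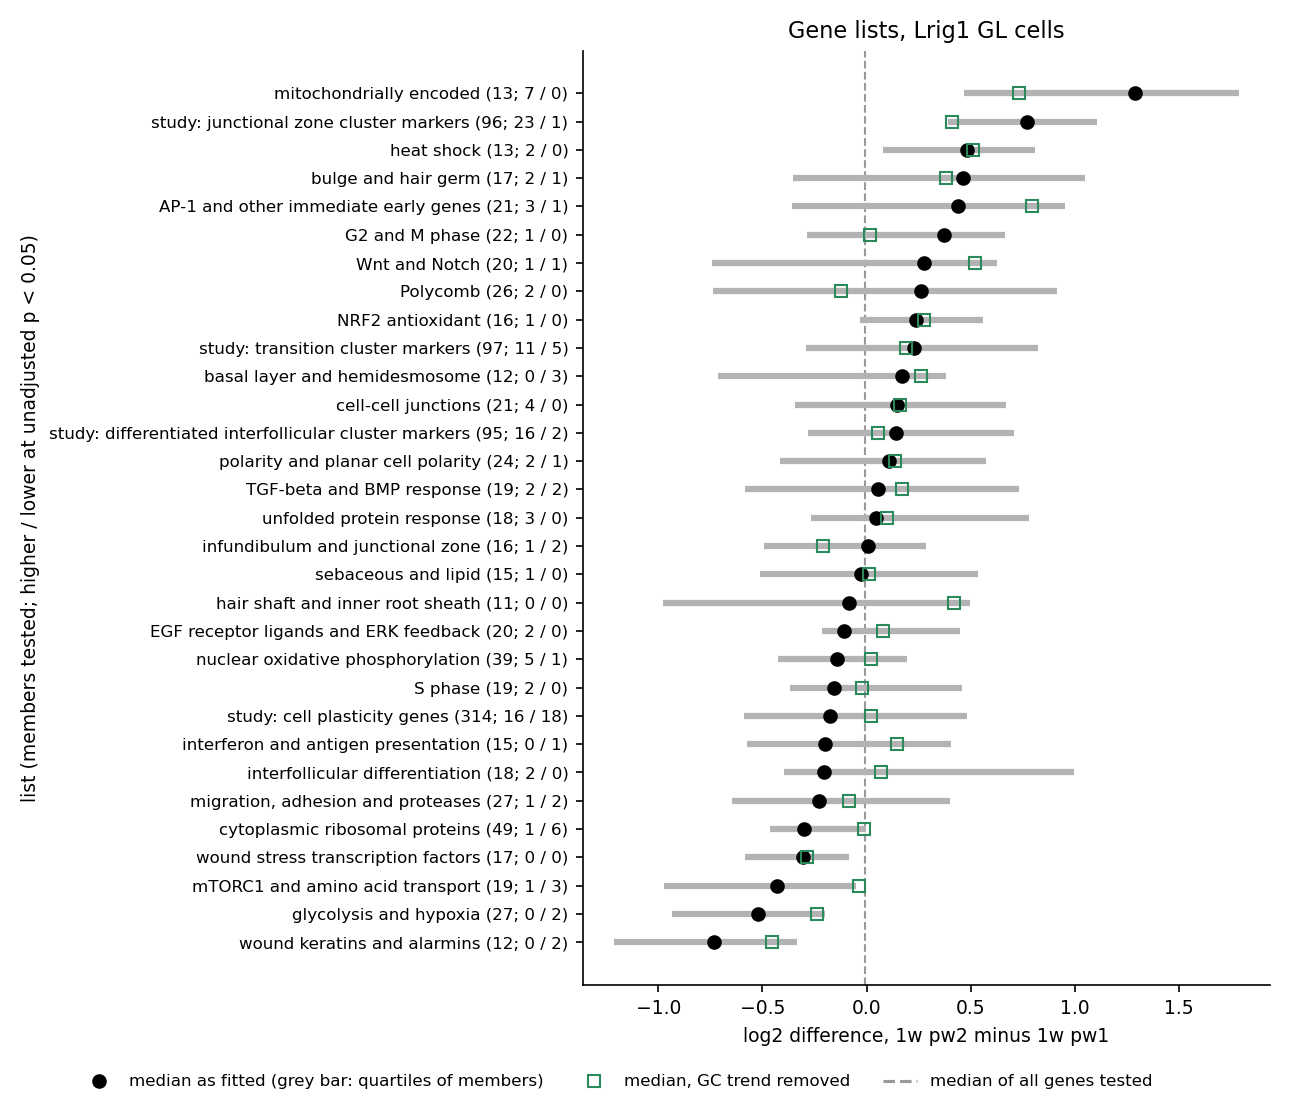
Median log2 difference of the 31 lists of pathways and study clusters, 1w pw2 minus 1w pw1 (black, with the quartiles of its members in grey) and with the GC trend removed (green). The numbers beside each name are the members tested and those higher and lower at an unadjusted p under 0.05. Of the lists drawn, which leave out the markers of other cell types, wound keratins and glycolysis genes lie lowest and mitochondrially encoded genes and junctional zone cluster markers highest.

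Of 21 genes of cell-cell junctions 4 were higher and 0 lower, with a list median of 0.14 (0.16 with the GC trend removed, 3 higher and 1 lower). Dsp, the desmosomal plaque protein that anchors keratin filaments, was at 3909, 3107 and 2141 CPM at 1w pw1 and 4975, 8953 and 8671 CPM at 1w pw2 (1.30 ± 0.38). Dsc3, a desmosomal cadherin, was at 1122, 1190.0 and 1034 CPM at 1w pw1 and 1389.8, 1932 and 1664 CPM at 1w pw2 (0.58 ± 0.23). Gja1, the gap junction connexin of keratinocytes, was at 923, 795 and 543 CPM at 1w pw1 and 1239.7, 1974 and 1463 CPM at 1w pw2 (1.05 ± 0.38). All 3 were above the first-wound level in every library. Ocln, a tight junction protein, was at 2.85, 9.05 and 4.15 CPM at 1w pw1 and 31.6, 29.2 and 27 CPM at 1w pw2 (2.48 ± 0.75), a few counts per library at 1w pw1. Perp, a p53 target required for desmosomes, was at 7327, 5889 and 6379 CPM at 1w pw1 and 10529, 11806 and 9837 CPM at 1w pw2 (0.72 ± 0.20, unadjusted p = 0.00272, edgeR adjusted p = 0.36). Of 24 genes of cell polarity 2 were higher and 1 lower, with a median of 0.11 (0.14 with the GC trend removed, 2 higher and 1 lower). Cdc42, the small GTPase that sets polarity and filopodia, was at 308, 292 and 464 CPM at 1w pw1 and 550.3, 726 and 610.3 CPM at 1w pw2 (0.82 ± 0.33). Crb3, an apical polarity protein, was at 43.7, 21.5 and 25.9 CPM at 1w pw1 and 11.3, 9.73 and 1.97 CPM at 1w pw2 (-1.95 ± 0.68). Pard3b was at 0 to 0.46 CPM at 1w pw1 and at 1.12 to 9.91 CPM at 1w pw2, close to the level that 3 counts give (1.12 to 3.39 CPM over the 6 libraries), and no fold is given.

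Of 27 genes of migration, matrix adhesion and proteases 1 was higher and 2 lower, with a median of -0.23 (-0.08 with the GC trend removed, 1 higher and 1 lower). Itgav, an integrin chain induced in migrating keratinocytes, was at 149, 109.7 and 68.8 CPM at 1w pw1 and 269.9, 377 and 229 CPM at 1w pw2 (1.42 ± 0.63). At 8w pw1, before the second wound, it already stood at 309, 348 and 434 CPM, from the lowest library to the highest. Myh9, the non-muscle myosin heavy chain, was at 212, 131 and 284 CPM at 1w pw1 and 112, 152 and 119 CPM at 1w pw2 (-0.71 ± 0.29), with overlapping libraries. Inhba, which encodes a chain of activin, was at 8.54, 3.39 and 20.8 CPM at 1w pw1 and 0, 1.12 and 1.32 CPM at 1w pw2, at or under the level of 3 counts in every second-wound library.

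Signalling genes differed member by member. Of 21 AP-1 and other immediate early genes 3 were higher and 1 lower, with a median of 0.44 (0.79 with the GC trend removed, 3 higher and 0 lower). Junb, a Jun family subunit of AP-1, was at 1296, 558 and 738 CPM at 1w pw1 and 412, 402 and 518 CPM at 1w pw2 (-0.96 ± 0.33). Klf6, an immediate early zinc finger factor, was at 94.9, 72.4 and 77.6 CPM at 1w pw1 and 175, 108 and 126 CPM at 1w pw2 (0.74 ± 0.35). Klf4, described with differentiation, is also on this list. Atf3, a stress-induced factor, was at 0, 0 and 0.46 CPM at 1w pw1 and 18.9, 2.99 and 6.58 CPM at 1w pw2, and no fold is given since first-wound libraries held at most 1 count. Of 20 genes of EGF receptor ligands and ERK feedback 2 were higher and 0 lower, both of them inhibitors of Ras to ERK signalling. Spred1 was at 12.3, 39.6 and 35.1 CPM at 1w pw1 and 78.3, 101 and 127 CPM at 1w pw2 (1.81 ± 0.50) and Spry2 at 78.8, 87.1 and 87.7 CPM at 1w pw1 and 244, 117 and 203 CPM at 1w pw2 (1.15 ± 0.33). Every second-wound library was above every first-wound library in both, as in the Ras inhibitor Rasa1 above, while the list median was -0.11 (0.08 with the GC trend removed, 2 higher and 0 lower).

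Of 20 Wnt and Notch genes 1 was lower, Notch3, and 1 higher, with a median of 0.28 (0.52 with the GC trend removed, 2 higher and 1 lower). The higher one was Wif1, a secreted Wnt inhibitor at 0 in all 3 first-wound libraries and at 17, 0 and 19.7 CPM after the second wound. Of 19 genes of the TGF-beta and BMP response 2 were higher and 2 lower, with a median of 0.05 (0.17 with the GC trend removed, 1 higher and 1 lower). Skil, a feedback repressor of SMAD proteins, was at 49.4, 144 and 119.6 CPM at 1w pw1 and 206, 239 and 203 CPM at 1w pw2 (1.05 ± 0.38). Id3, a BMP target that inhibits differentiation factors, was at 40.8, 47.5 and 14.8 CPM at 1w pw1 and 111, 53.9 and 70.4 CPM at 1w pw2 (1.21 ± 0.52). Tgfbi, a matrix protein induced by TGF-beta, was at 641, 934 and 911 CPM at 1w pw1 and 553, 528 and 553 CPM at 1w pw2 (-0.61 ± 0.28), and Inhba was the other lower gene. Of 17 stress transcription factors of wounded epidermis 0 passed an unadjusted p of 0.05 in either direction, with a median of -0.30 (-0.29 with the GC trend removed, 1 higher and 0 lower).

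Cell cycle genes showed few differences. Of 19 S phase genes 2 were higher and 0 lower, with a median of -0.16 (-0.02 with the GC trend removed, 1 higher and 0 lower). Pcna, the sliding clamp of replication, was at 103, 55.4 and 113 CPM at 1w pw1 and 111, 232 and 239 CPM at 1w pw2 (1.09 ± 0.41), with overlap. Of 22 genes of G2 and M phase, Top2a, the topoisomerase of chromosome segregation, was the 1 higher, at 70.2, 101 and 148 CPM at 1w pw1 and 176, 289 and 191 CPM at 1w pw2 (1.04 ± 0.43). The list had a median of 0.37 (0.02 with the GC trend removed, 0 higher and 0 lower). Of 26 Polycomb genes 2 were higher and 0 lower. Eed, a core subunit of the complex that methylates histone H3, was at 25.6, 26 and 23.5 CPM at 1w pw1 and 83.1, 162 and 80.2 CPM at 1w pw2 (2.11 ± 0.79). Yaf2, a subunit of the complexes that ubiquitinate histone H2A, was at 23.7, 13.6 and 42.9 CPM at 1w pw1 and 99.1, 74.8 and 78.3 CPM at 1w pw2 (1.63 ± 0.59). The median of the Polycomb list was 0.26 (-0.12 with the GC trend removed, 3 higher and 0 lower).

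Of 27 glycolysis and hypoxia genes 0 were higher and 2 lower, and 24 had a negative difference, with a median of -0.52 (-0.24 with the GC trend removed, 0 higher and 0 lower). Gpi1, which interconverts the phosphates of glucose and fructose, was at 171, 131 and 187 CPM at 1w pw1 and 121, 74.5 and 98.7 CPM at 1w pw2 (-0.74 ± 0.32). Pfkl, a chain of the rate-setting phosphofructokinase, was at 98.7, 49.8 and 199 CPM at 1w pw1 and 73.2, 52 and 30.9 CPM at 1w pw2 (-1.16 ± 0.48). Slc2a1, the glucose transporter of keratinocytes, was at 739, 991 and 781 CPM at 1w pw1 and 449, 663 and 477 CPM at 1w pw2 (-0.66 ± 0.36, unadjusted p = 0.0824, edgeR adjusted p = 0.609). Before the wounds it was at 109.8, 145 and 208 CPM (0w) and 188, 223 and 385 CPM (8w pw1). The list had a median response of 1.09 to the first wound and 0.58 to the second. Of 19 genes of mTORC1 signalling and amino acid transport 1 was higher and 3 lower, with a median of -0.43 (-0.04 with the GC trend removed, 1 higher and 1 lower). Slc1a5, the glutamine transporter, was at 39.9, 49.8 and 25.9 CPM at 1w pw1 and 5.66, 13.5 and 20.4 CPM at 1w pw2 (-1.54 ± 0.65). Rptor, the scaffold of mTORC1, was at 47.5, 24.9 and 43.9 CPM at 1w pw1 and 19.8, 12 and 13.8 CPM at 1w pw2 (-1.35 ± 0.60). Eif4ebp1, the translation repressor that mTORC1 releases, was at 211, 182 and 234 CPM at 1w pw1 and 134, 138 and 117 CPM at 1w pw2 (-0.69 ± 0.29). Psat1, an enzyme of serine synthesis, was the higher one, at 186, 117 and 79.4 CPM at 1w pw1 and 209.5, 370.1 and 214 CPM at 1w pw2 (1.06 ± 0.48).

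**Figure D4:**
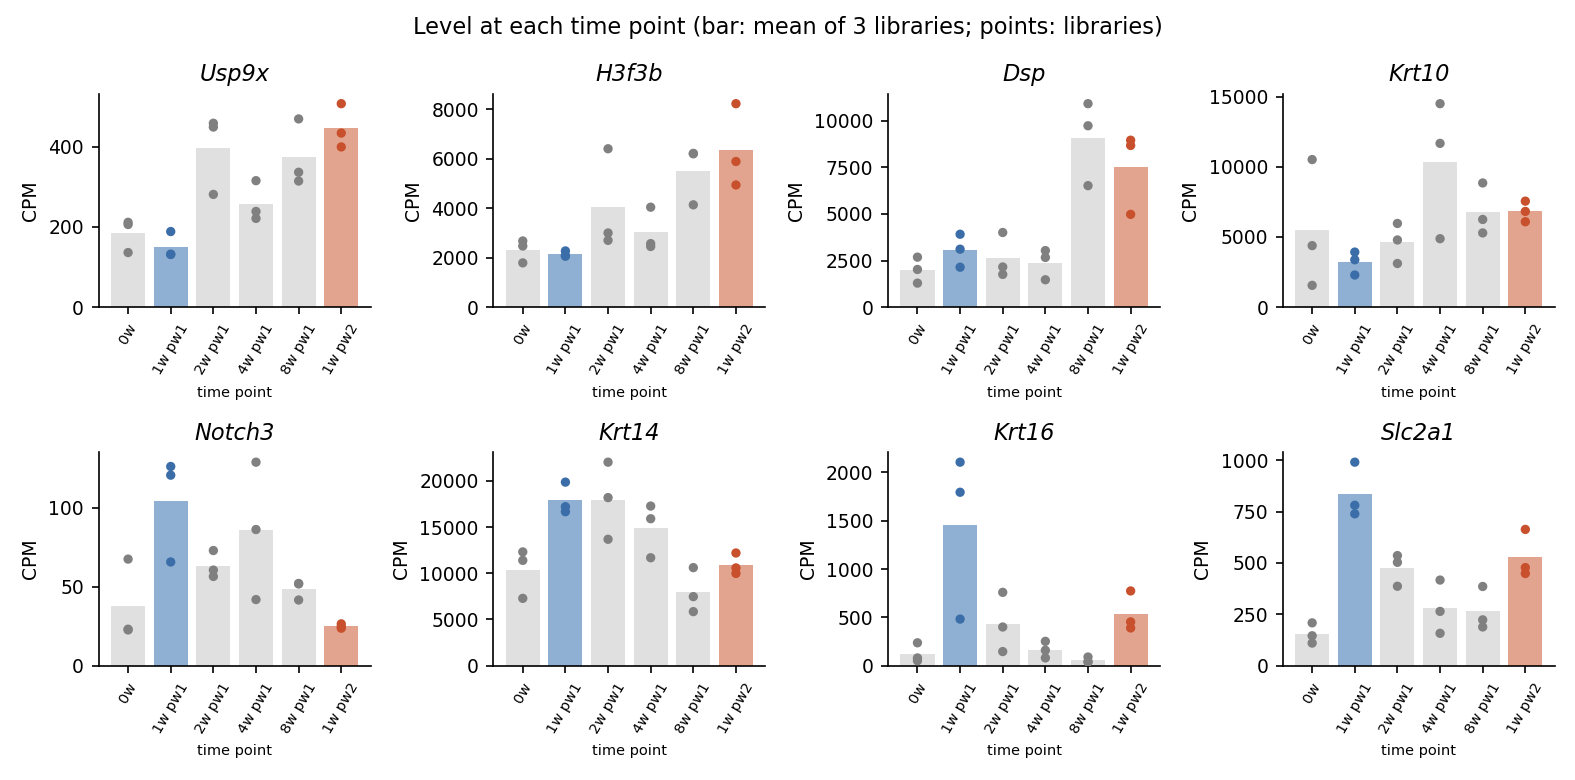
CPM of 8 genes described in the text at the 6 time points of the Lrig1 GL cells, where a bar is the mean of 3 libraries, a point is a library, blue is 1w pw1 and red is 1w pw2. Usp9x, H3f3b and Dsp stood higher at 8w pw1 than at 0w and were above the 0w libraries at 1w pw2 too, whereas Krt16 and Slc2a1 had their highest means at 1w pw1 and their next highest at 1w pw2.

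All 13 tested mitochondrially encoded genes had overlapping libraries, while 7 were higher at an unadjusted p under 0.05, with a median of 1.29 (0.73 with the GC trend removed, 1 higher and 2 lower). Transcripts of mitochondrial genes made up 8.41, 3.98 and 3.89% of counts at 1w pw1 and 8.66, 7.54 and 4.89% at 1w pw2, so replicate 1 of the first wound was at the level of the second. Among subunits of cytochrome oxidase, mt-Co1 was at 13747, 4171 and 2994 CPM at 1w pw1 and 20856, 20237 and 9952 CPM at 1w pw2 (1.29 ± 0.54). The gene mt-Co2 was at 1171, 543 and 346 CPM at 1w pw1 and 4143, 2079 and 873 CPM at 1w pw2 (1.79 ± 0.76). The third subunit, mt-Co3, was at 2145, 697 and 504 CPM at 1w pw1 and 10986, 4532 and 1521 CPM at 1w pw2 (2.35 ± 0.93). The complex I gene mt-Nd4l was at 36.1, 22.6 and 14.3 CPM at 1w pw1 and 188, 76 and 21.7 CPM at 1w pw2 (1.99 ± 0.75). In each, replicate 1 of 1w pw2 was the highest of the 1w pw1 and 1w pw2 libraries. At 8w pw1, before the second wound, mt-Co1 was at 21584 to 39853 CPM and mt-Co2 at 2782 to 10182 CPM. At that time mt-Co3 was at 9395 to 29696.5 CPM and mt-Nd4l at 136 to 320 CPM. The mitochondrially encoded list had a median log2 response of 0.32 to the first wound and -1.14 to the second, each from the state before it. Of 39 nuclear genes of oxidative phosphorylation 5 were higher and 1 lower, with a median of -0.14 (0.02 with the GC trend removed, 4 higher and 2 lower). Ndufa1, of complex I, was at 94.9, 79.2 and 139 CPM at 1w pw1 and 210.0, 377 and 222 CPM at 1w pw2 (1.36 ± 0.46). Atp5j, of the ATP synthase, was at 427, 245 and 445 CPM at 1w pw1 and 568, 1051 and 449.9 CPM at 1w pw2 (0.89 ± 0.37), while Ndufab1 and Ndufa5 overlapped. Ndufa11 was the lower one.

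Of 49 cytoplasmic ribosomal protein genes 1 was higher and 6 lower, with a median of -0.30 (-0.01 with the GC trend removed, 0 higher and 2 lower). Rps9 was at 396, 291 and 413 CPM at 1w pw1 and 239, 194 and 197 CPM at 1w pw2 (-0.81 ± 0.26) and Rpl27 at 130.0, 98.4 and 54.9 CPM at 1w pw1 and 43.9, 52 and 24.3 CPM at 1w pw2 (-1.22 ± 0.40). Rpl41 was at 589, 397 and 608 CPM at 1w pw1 and 391, 324 and 222 CPM at 1w pw2 (-0.77 ± 0.26). The exception was Rpl5, a carrier of ribosomal RNA that also restrains Mdm2, at 918, 645 and 879 CPM at 1w pw1 and 1403, 2147 and 1059.5 CPM at 1w pw2 (0.92 ± 0.30). Ribosomal protein genes have many processed pseudogenes, with which their reads can be shared.

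Of 18 genes of the unfolded protein response 3 were higher and 0 lower, although the list median was 0.04 (0.10 with the GC trend removed, 2 higher and 0 lower). Pdia3, a disulfide isomerase of glycoprotein folding, was at 414, 281 and 407 CPM at 1w pw1 and 517, 1386 and 883 CPM at 1w pw2 (1.34 ± 0.32, unadjusted p = 0.000596, edgeR adjusted p = 0.304). Hsp90b1, the chaperone of that compartment, was at 236, 257 and 163.4 CPM at 1w pw1 and 447, 626 and 403 CPM at 1w pw2 (1.17 ± 0.32). Canx, the lectin calnexin, was at 625, 712 and 504 CPM at 1w pw1 and 714, 1522 and 1233 CPM at 1w pw2 (0.91 ± 0.39). All 3 fold proteins in the lumen or at the membrane of the reticulum, whereas Syvn1, which sends misfolded ones to degradation, was lower. Of 13 heat shock genes 2 were higher and 0 lower, with a median of 0.48 (0.51 with the GC trend removed, 2 higher and 0 lower). Hsp90aa1, an inducible cytosolic chaperone, was at 161, 128 and 192 CPM at 1w pw1 and 263, 393 and 297 CPM at 1w pw2 (0.98 ± 0.35). Hspa1b, an inducible heat shock protein whose neighbour Hspa1a is nearly identical, was at 139, 75.8 and 41.1 CPM at 1w pw1 and 157, 246 and 285 CPM at 1w pw2 (1.44 ± 0.50). Of 16 antioxidant targets of NRF2 the 1 higher was Txn1, thioredoxin, at 955, 498 and 764 CPM at 1w pw1 and 1149, 1843 and 988 CPM at 1w pw2 (0.84 ± 0.34). Of 15 interferon and antigen presentation genes the 1 lower was Cd74, at 0 in every library but 1w pw1 replicate 3. The medians were 0.24 (0.28 with the GC trend removed, 1 higher and 0 lower) for the antioxidant list and -0.20 (0.15 with the GC trend removed, 0 higher and 0 lower) for the interferon list.

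The study's single-cell experiment defined marker lists for epidermal clusters, and only the gene names of these lists were taken. Of 96 junctional zone cluster markers tested, 23 were higher (24%) and 1 lower, against 5.86% and 3.01% over all genes. In 35 of them all second-wound libraries stood above all first-wound ones (36.5%, against 11.2%), 85 of the 96 had a positive difference, and the median was 0.77. With the GC trend removed the median was 0.41, with 13 higher and 1 lower, against 529 and 261 of all 14306 genes. The median GC content of these markers was 43.4%. Taken from the state before each wound, their median log2 response was -0.03 to the first and -0.02 to the second. Gene by gene, the second response minus the first had a median of 0.12. The list was made from skin of the same study and is not independent evidence of a direction. Calm2, a calmodulin gene, was at 641, 406 and 686 CPM at 1w pw1 and 1109, 1194 and 1344 CPM at 1w pw2 (1.07 ± 0.30). Dek, a chromatin protein, was at 180.3, 143 and 158 CPM at 1w pw1 and 309, 409 and 326 CPM at 1w pw2 (1.12 ± 0.32). Hnrnpa1, an RNA-binding protein with many pseudogenes, was at 156, 126 and 141 CPM at 1w pw1 and 216, 717 and 241 CPM at 1w pw2 (1.47 ± 0.41), with replicate 2 of 1w pw2 far above the others. Cav1, the scaffold of caveolae, was at 179, 303 and 228 CPM at 1w pw1 and 462, 524 and 673 CPM at 1w pw2 (1.22 ± 0.31) and is also a marker of the transition cluster.

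Of 97 transition cluster markers 11 were higher and 5 lower, with a median of 0.23 (0.19 with the GC trend removed, 9 higher and 0 lower). Mt2, a metallothionein, was at 124, 67.9 and 88.6 CPM at 1w pw1 and 224, 259 and 218 CPM at 1w pw2 (1.32 ± 0.35). Col7a1, the collagen of anchoring fibrils, was at 131, 231 and 197 CPM at 1w pw1 and 43.9, 55.8 and 94 CPM at 1w pw2 (-1.53 ± 0.50). Of 95 markers of differentiated interfollicular clusters 16 were higher and 2 lower, with a median of 0.14 (0.06 with the GC trend removed, 6 higher and 0 lower). Rora, a nuclear receptor of differentiation, was at 87.3, 109 and 77.1 CPM at 1w pw1 and 186, 283 and 228 CPM at 1w pw2 (1.36 ± 0.40). Serpinb5, maspin, was at 1106, 586 and 673 CPM at 1w pw1 and 1599.8, 2135 and 1246 CPM at 1w pw2 (1.08 ± 0.33). Krt2, a late suprabasal keratin of tail skin, was at 12.3, 44.1 and 16.6 CPM at 1w pw1 and 885, 47.5 and 966 CPM at 1w pw2 (4.73 ± 1.34), where 1 second-wound library lay next to the first-wound level. Of 314 cell plasticity genes of the study 16 were higher and 18 lower, with a median of -0.17 (0.02 with the GC trend removed, 18 higher and 6 lower). Ppp1cb, given above, was the first of them by p. Dynlt3, a light chain of dynein, was at 233, 186 and 224 CPM at 1w pw1 and 561, 772 and 635 CPM at 1w pw2 (1.61 ± 0.37). Metap2, a methionine aminopeptidase, was at 386, 252 and 203 CPM at 1w pw1 and 673, 989 and 759 CPM at 1w pw2 (1.53 ± 0.39). Tsc22d1, a leucine zipper factor, was at 6.64, 12.4 and 19.4 CPM at 1w pw1 and 36.8, 97.7 and 54.6 CPM at 1w pw2 (2.27 ± 0.55).

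Genes that the study or its labels single out were read on their own. Of these 17 genes 4 were higher and 2 lower at an unadjusted p under 0.05, with a median of 0.07 (0.07 with the GC trend removed, 2 higher and 0 lower). Mir99ahg, a host transcript of a microRNA cluster, was at 70.2, 119.9 and 72.9 CPM at 1w pw1 and 247, 284 and 209 CPM at 1w pw2 (1.50 ± 0.37, unadjusted p = 0.000774, edgeR adjusted p = 0.304). The libraries do not mark strand, so reads of an overlapping transcript on the other strand would be counted with it. Gja1, Spry2 and Postn, described above, were likewise higher in all second-wound libraries. Krt14 and Slc2a1, also described above, were lower in all of them. The unadjusted p of Slc2a1 given above was over 0.05, so it is not one of the 2 counted as lower. The stem cell marker Lgr5 was at 0.95, 55.4 and 27.2 at 1w pw1 and 21.7, 8.23 and 87.5 at 1w pw2 in CPM, a spread within each time point that exceeded the difference. Cd44, a receptor for hyaluronan, was at 884, 900.4 and 782 CPM at 1w pw1 and 647, 1385 and 1285 CPM at 1w pw2. Ly6a, which encodes the surface antigen Sca-1 of the upper follicle, was at 781, 452 and 534 CPM at 1w pw1 and 607, 772 and 508 CPM at 1w pw2. Both overlapped between time points. Fabp5, Plau, Rab31 and Tcim did as well.

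A second comparison took each response from its own start, the 1w pw2 level against 8w pw1, minus the 1w pw1 level against 0w. In edgeR's quasi-likelihood test, 0 of 14306 genes passed an adjusted p of 0.05 (0%), with a smallest adjusted p of 0.101, whereas the likelihood ratio test called 33 and DESeq2 32. At an unadjusted p under 0.05 the second response was the more positive in 519 genes (3.63%) and the more negative in 616 (4.31%). Gorab, a Golgi protein, had that smallest p, and its level was 0 to 0.64 CPM at 0w, 3.8 to 35.1 CPM at 1w pw1, 23.3 to 55.8 CPM at 8w pw1 and 12.5 to 23.1 CPM at 1w pw2. It was near 0 only before the first wound, so no fold is given. Mmp3, the stromelysin of wound edges, was at 0 CPM at 0w, 3.39 to 32.3 CPM at 1w pw1, 14.7 to 38.1 CPM at 8w pw1 and 2.99 to 22.2 CPM at 1w pw2. Grip1, a scaffold of glutamate receptors, was at 0 to 1.03 CPM at 0w, 8.54 to 29.4 CPM at 1w pw1, 23.8 to 40.7 CPM at 8w pw1 and 8.49 to 50.6 CPM at 1w pw2. Both were likewise near 0 at 0w, and the 2 time points after wounding overlapped. The kinase Bmp2k was at 25.6 to 49.3 CPM at 0w, 99.5 to 139 CPM at 1w pw1, 119.8 to 192 CPM at 8w pw1 and 109.8 to 137 CPM at 1w pw2 (log2 difference of responses -2.18 ± 0.45). The mitochondrial ribosomal RNA mt-Rnr1 was at 203 to 232 CPM at 0w, 392 to 752 CPM at 1w pw1, 727 to 1221 CPM at 8w pw1 and 485 to 682 CPM at 1w pw2 (-2.01 ± 0.45).

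In the other direction, Cox7a2l, an assembly factor of respiratory supercomplexes, was at 119 to 204 CPM at 0w, 56.6 to 137 CPM at 1w pw1, 30.6 to 47 CPM at 8w pw1 and 83.8 to 110.0 CPM at 1w pw2 (2.30 ± 0.50). It was below its start 1 week after the first wound and above it 1 week after the second. Rpl6 was at 251 to 326 CPM at 0w, 125 to 195 CPM at 1w pw1, 92.5 to 137 CPM at 8w pw1 and 169 to 238 CPM at 1w pw2 (1.66 ± 0.40). Barx2, a homeobox factor of hair follicles, was at 335 to 475 CPM at 0w, 182 to 241 CPM at 1w pw1, 76.7 to 116 CPM at 8w pw1 and 128 to 222 CPM at 1w pw2 (1.83 ± 0.46). The aldehyde dehydrogenase Aldh3a1 was at 409 to 795 CPM at 0w, 79.2 to 158 CPM at 1w pw1, 128 to 217 CPM at 8w pw1 and 112 to 277 CPM at 1w pw2 (2.41 ± 0.61). The monooxygenase Fmo5 was at 27.5 to 122 CPM at 0w, 0 to 4.52 CPM at 1w pw1, 19.3 to 68.4 CPM at 8w pw1 and 15.1 to 42.1 CPM at 1w pw2. In all but Fmo5 the levels 1 week after each wound overlapped. By list, 9 of 49 ribosomal protein genes and 6 of 39 nuclear genes of oxidative phosphorylation had the more positive second response at an unadjusted p under 0.05 and 0 the more negative, while 6 of 13 mitochondrially encoded genes had the more negative and 0 the more positive. Of 15 sebaceous and lipid genes 4 had the more positive and 0 the more negative. Over all genes tested the shares were 3.63% more positive and 4.31% more negative. Median GC content was 51.5% for the ribosomal list, 49.0% for the oxidative phosphorylation list and 37.1% for the mitochondrially encoded list. The GC tilt differed between 0w and 8w pw1, as given above, and its part in the responses was not tested. These counts are not given with the GC trend removed.

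Lgr5 GL cells, progeny of stem cells of the bulge and hair germ labelled the same way through the Lgr5 promoter and taken at the same time points, give the test of whether a difference was particular to the Lrig1 progeny. The second-wound minus first-wound difference was itself compared between the populations over 13980 genes that could be tested in both. In edgeR's quasi-likelihood test 15 genes passed an adjusted p of 0.05 (0.107%), 9 with the more positive difference in Lrig1 GL cells and 6 with the more negative. The tables were counted separately and put on one scale by TMM, so CPM values differ slightly from those above. Hsp90b1 was at 249.6, 274 and 172 CPM at 1w pw1 and 481, 667 and 438 at 1w pw2 in Lrig1 GL cells. In Lgr5 GL cells it was at 425, 385 and 408 CPM at 1w pw1 and 245, 170.1 and 193 at 1w pw2 (log2 difference of differences 2.19 ± 0.39 SE, edgeR adjusted p = 0.0343). Gng5 was at 364, 289 and 184 CPM at 1w pw1 and 803, 1837 and 971 at 1w pw2 in Lrig1 GL cells. The Lgr5 GL libraries held it at 427, 279.6 and 325 CPM at 1w pw1 and 144, 94.3 and 125 at 1w pw2 (3.62 ± 0.65, edgeR adjusted p = 0.0343). In both, the second wound stood above the first in all Lrig1 GL libraries and below it in all Lgr5 GL libraries.

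The same opposite order was found for Ppp1r14c, which was at 85.2, 89.2 and 100.3 CPM at 1w pw1 and 358, 232 and 233 at 1w pw2 in Lrig1 GL cells. Its level in Lgr5 GL cells was 233, 129 and 293 CPM at 1w pw1 and 125, 116 and 77.4 at 1w pw2 (2.62 ± 0.52). It held too for Fam213a, a peroxiredoxin-like protein, at 247, 321 and 220.5 CPM at 1w pw1 and 471, 747 and 411 at 1w pw2 in Lrig1 GL cells. In Lgr5 GL cells it was at 199, 327 and 221 CPM at 1w pw1 and 127, 65.9 and 50.5 at 1w pw2 (2.66 ± 0.53). Txndc17, a thioredoxin-related protein, was at 395, 322 and 292 CPM at 1w pw1 and 533, 639.5 and 474 at 1w pw2 in Lrig1 GL cells. The Lgr5 GL libraries held it at 513, 478 and 515 CPM at 1w pw1 and 283, 181 and 182 at 1w pw2 (1.93 ± 0.39) and followed the same order. The enzyme of fatty acid elongation Hsd17b12 was at 189, 192 and 92.1 CPM at 1w pw1 and 280.3, 463 and 249.6 at 1w pw2 in Lrig1 GL cells. Its level in Lgr5 GL cells was 195, 167 and 324 CPM at 1w pw1 and 88.4, 92.5 and 107 at 1w pw2 (2.33 ± 0.48), again in opposite order. Dcun1d5 was at 125, 51.8 and 122 CPM at 1w pw1 and 285, 504 and 286 at 1w pw2 in Lrig1 GL cells. In Lgr5 GL cells it was at 183, 52.2 and 146 CPM at 1w pw1 and 66.3, 62.3 and 68.4 at 1w pw2 (2.80 ± 0.53), with overlap among the Lgr5 GL libraries. No theme was tested for the 15 genes.

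On the other side, Nisch was at 217, 423 and 302 CPM at 1w pw1 and 184, 119 and 148 at 1w pw2 in Lrig1 GL cells. The Lgr5 GL libraries held it at 154, 130.4 and 107 CPM at 1w pw1 and 164, 348 and 275 at 1w pw2 (-2.07 ± 0.40). It was lower after the second wound in all Lrig1 GL libraries and higher in all Lgr5 GL ones. Prrc2b, an RNA-binding protein, was at 128, 174 and 194 CPM at 1w pw1 and 69.6, 91.6 and 93 at 1w pw2 in Lrig1 GL cells. Its level in Lgr5 GL cells was 86.3, 107 and 71.9 CPM at 1w pw1 and 138, 223 and 217 at 1w pw2 (-2.09 ± 0.44), likewise in opposite order. Rif1, a factor of replication timing and DNA repair, was at 130.3, 139 and 80.9 CPM at 1w pw1 and 161, 190.1 and 173 at 1w pw2 in Lrig1 GL cells. In Lgr5 GL cells it was at 6.49, 6.52 and 5.15 CPM at 1w pw1 and 36.3, 90.2 and 75.3 at 1w pw2 (-2.89 ± 0.57). Its level was higher after the second wound in both populations, by more in Lgr5 GL cells. Camsap1, which binds microtubule minus ends, was at 41.1, 56.7 and 47.5 CPM at 1w pw1 and 13.7, 12.8 and 45.1 at 1w pw2 in Lrig1 GL cells. The Lgr5 GL libraries held it at 0.93, 4.08 and 7.85 CPM at 1w pw1 and 32.8, 39 and 46.9 at 1w pw2 (-4.17 ± 0.87). Scnn1b, a subunit of the epithelial sodium channel, was at 1, 0 and 12.6 CPM at 1w pw1 and 0, 0 and 0 at 1w pw2 in Lrig1 GL cells. Its level in Lgr5 GL cells was 0, 0 and 0.25 CPM at 1w pw1 and 32.1, 25 and 22.1 at 1w pw2. In both populations it was thus at or near 0 at one time point or both, and no fold is given. These calls depended on the fit. With the GC trend removed 2 of the 15 genes passed, Gng5 and Rif1, and a fit on the 12 compared libraries alone called 0, while DESeq2 called 270 and limma-voom 281. The GC tilt differed between the populations as well: on a scale common to both it was -0.28 to 0.33 at 1w pw1 and 0.98 to 1.94 at 1w pw2 in Lrig1 GL libraries, and -1.10 to -0.75 and -0.66 to -0.33 in Lgr5 GL libraries.

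**Figure D5:**
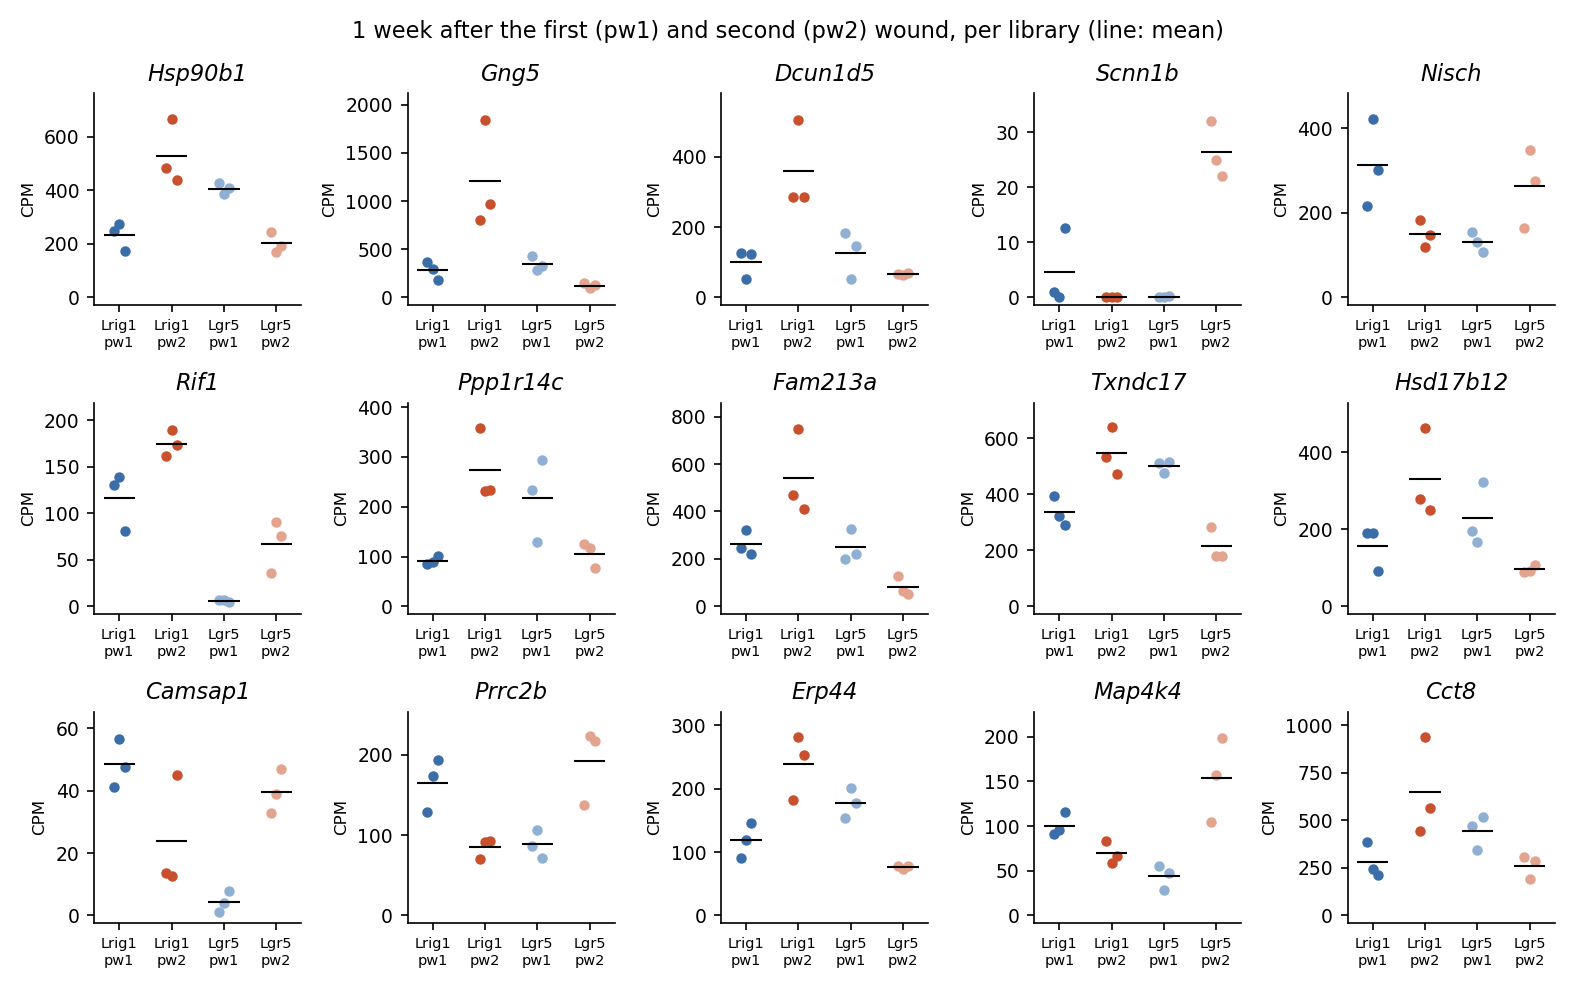
CPM of the 15 genes past an adjusted p of 0.05 for the difference between populations, 1 point per library and a line at each mean, with the 1w pw1 and 1w pw2 libraries of Lrig1 GL and Lgr5 GL cells side by side. Hsp90b1 and Gng5 stand higher after the second wound in all Lrig1 GL libraries and lower in all Lgr5 GL libraries.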

How the data were processed

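The deposited files hold raw counts per gene symbol, 1 table per population. According to the submitters' processing notes and the study's methods, the authors trimmed full-length Smart-seq2 reads (Trim Galore 0.5.0), aligned them to the mouse genome with HISAT2 and counted them with featureCounts. The libraries have no molecular identifiers and do not mark strand, so PCR copies are counted. Columns were joined to samples by the labels, and 21 of 36 only to their group.

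Genes were filtered with filterByExpr (minimum count 10) and scaled by TMM. All 18 Lrig1 GL libraries entered 1 edgeR 4.0.16 quasi-likelihood fit (R 4.3.3, 12 residual degrees of freedom, common biological coefficient of variation 0.698), or all 36 for the populations. The script was tested on simulated data. Named genes were the 14 per direction with the smallest p, a mean of at least 20 counts and no overlap between time points, predicted genes and Rik clones left out, then 5 per direction for the responses, up to 12 for the populations, up to 4 per list at p under 0.05 and the genes the study names. Members and lists were chosen with earlier results of these data known. GC content and positions came from GENCODE M21 (GRCm38). SE are from the fit. Replicates are separate libraries, and the study's figure legend for these data gives its n in mice. Where libraries do not come from separate mice, p-values measure technical spread only. Alternatives were limma 3.58.1 voom, DESeq2 1.42.0, the likelihood ratio test, other scalings, filters and prior counts, sva 3.50.0 surrogate variables, a GC trend, a replicate block, fewer libraries and thinned counts. The values of 1 gene counted in a list are not reported here.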

Additional observations from a re-analysis of the deposited data

Results flagged for a closer look

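The difference between the second and the first wound itself differed between Lrig1 GL and Lgr5 GL cells in 15 genes by edgeR's quasi-likelihood test of that difference, with Benjamini-Hochberg adjustment over 13980 genes. The adjusted p was 0.0343 for Hsp90b1 and Gng5. It was 0.0379 for Dcun1d5, Scnn1b, Nisch, Rif1 and Ppp1r14c, 0.0403 for Fam213a and 0.0414 for Txndc17. It was 0.0493 for Hsd17b12, Camsap1, Prrc2b, Erp44 and Map4k4, and 0.0496 for Cct8. Erp44, a chaperone of the early secretory pathway, and Cct8, a subunit of the cytosolic chaperonin, had the more positive difference in Lrig1 GL cells (2.23 ± 0.47 and 1.99 ± 0.42 on the log2 scale), and the kinase Map4k4 the more negative (-2.33 ± 0.49). These 3 fell outside the rule for named genes and are given because they passed the threshold. In Lrig1 GL cells all 3 libraries of the second wound stood above all 3 of the first in 10 of the 15 genes and below in 3. In Lgr5 GL cells they stood above in 6 and below in 8. Each gene was called under 7 to 16 of the 24 or 25 alternatives run for it.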

How the results depend on the processing

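Between 1w pw2 and 1w pw1, the quasi-likelihood test called 0 genes at an adjusted p under 0.05 under every alternative that kept it, and the likelihood ratio test 36, DESeq2 59 and limma-voom 15. Genes at an unadjusted p under 0.05 numbered 1269, and 1941 by limma-voom, 790 with the GC trend removed, 807 with 2 surrogate variables, 1068 with counts thinned to the depth of the shallowest library (chosen after seeing the data) and 735 to 1250 when 1 library was left out. The lowest of these were 735 without replicate 2 of 1w pw2 and 778 without replicate 3 of 1w pw1. The share of them higher at 1w pw2 was 66.1% and ranged from 56.2 to 68.9%. For Lrig1 the log2 difference turned from -0.20 to 0.24 with the GC trend removed and 0.21 with 2 surrogate variables, the single change of sign among the genes whose log2 difference is given for this comparison, and the cause was not tested. The medians of 9 of the 31 lists of pathways and study clusters changed sign with the GC trend removed. For the responses, the likelihood ratio test called 33 and DESeq2 32, and leaving out 1 library gave 0 to 1, the 1 without replicate 1 of 1w pw1 or without replicate 2 of 1w pw2.

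For the difference between populations, 15 calls became 0 on the compared libraries alone or with 2 surrogate variables, 2 with no filter on low counts, 2 with the GC trend removed, 250 by the likelihood ratio test, 270 by DESeq2 and 281 by limma-voom. Leaving out 1 library gave 0 to 54: 0 without Lrig1 GL 1w pw1 replicate 2 or 3, Lrig1 GL 1w pw2 replicate 2, Lgr5 GL 1w pw1 replicate 1 or Lgr5 GL 1w pw2 replicate 2 or 3, 6 without Lrig1 GL 1w pw2 replicate 1, 8 without Lgr5 GL 1w pw1 replicate 3 and 54 without Lgr5 GL 1w pw1 replicate 2.

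Deviations of same-numbered libraries from their time point means correlated at -0.0235, -0.0576 and -0.0298, and those of other pairs at -0.0388 to 0.0748. No pairing by number was seen, but with 3 libraries per time point this check cannot exclude one. With a replicate block the first comparison called 0 genes, with 1432 at an unadjusted p under 0.05, and the populations 0. The responses could not be fitted with the block, since the 8w pw1 columns carry no label numbers. The 3 libraries per time point and totals from 765252 counts limit what could be detected.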
